A study of Homo sapiens with 14 samples.

Results

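Integrins are cell surface receptors made of 1 alpha and 1 beta chain that bind matrix proteins or counter-receptors on other cells. 10 integrin genes (ITGA4, ITGAL, ITGB2, ITGB7, ITGB1, ITGAV, ITGA6, ITGB5, ITGA3 and ITGA5) were followed through mixtures of the human lines HEK-293T and Jurkat. They were chosen by name, as chains known from adherent or from lymphoid cells, with earlier results of these data known. The other gene lists used below were also chosen with those results known. All 10 were found among the 58440 genes of the deposited tables. HEK-293T is an embryonic kidney line that grows attached and Jurkat is a suspension line from a T cell leukemia, and each is a single established line. The 14 libraries were pure HEK, pure Jurkat and mixtures with 80%, 60%, 50%, 40% and 20% HEK cells, with 2 libraries for each. All groups held the same total number of cells, received no treatment and were given the same volume of diluted ERCC spike-ins, which are synthetic RNAs. The libraries of a group are technical replicates per the labels, so the spread given here is between such replicates and not between cultures.

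An integrin chain reaches the cell surface only with a partner. ITGAL and ITGB2 encode the chains of the leukocyte receptor for ICAM proteins, and ITGB2 is made almost only by leukocytes. ITGA4 pairs with ITGB1 or ITGB7 and binds VCAM1, fibronectin or MADCAM1 on lymphocytes. ITGB1 is the shared partner of many alpha chains, among them the laminin receptors ITGA3 and ITGA6 and the fibronectin receptor ITGA5. ITGAV pairs with several beta chains, and with ITGB5 it forms a vitronectin receptor of attached cells.

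Library depth ran from 4468822 to 28303668 gene counts. The limit set by 3 counts was therefore between 0.106 and 0.671 CPM (a gene's share of all gene counts, scaled to the same total in every library). Both pure Jurkat libraries were the shallowest, and ERCC made up 0.674% to 7.65% of the counts of a library. By T cell and epithelial-like markers the lines fitted their labels. The summed level of 6 T cell markers was 2289 to 2714 CPM in pure Jurkat and 2.44 to 5.40 CPM in pure HEK. The 6 epithelial-like markers summed to 204 to 226 CPM in pure HEK and to 18.7 to 32.2 CPM in pure Jurkat. The 3 myeloid markers summed to no more than 0.886 CPM in the pure libraries. The 3 fibroblast markers summed to 11.3 to 12.3 CPM in pure HEK and 2.94 to 3.55 CPM in pure Jurkat. For the 3 B cell markers the sums were 2.37 to 4.97 CPM in HEK and 5.37 to 6.93 CPM in Jurkat. For the 3 endothelial markers they were 0.205 to 0.513 CPM in HEK and 28.8 to 46.7 CPM in Jurkat, where only PECAM1 had counts. The deposited file names fall into 2 groups, with both pure HEK libraries in one and both pure Jurkat libraries in the other, so for the pure lines a difference between cells and one between these groups cannot be told apart.

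Between the pure lines, the 3 lymphoid chains with enough counts to be tested were all far higher in Jurkat, and of the chains known from attached cells only ITGB5 was higher in HEK. ITGA4 was 20.3-fold, ITGAL 85.3-fold and ITGB2 at least 238-fold higher in Jurkat. ITGB5 was 22.9-fold higher in HEK. ITGB1, ITGAV, ITGA6, ITGA3 and ITGA5 did not pass the test. By share of counts the division into adherent and lymphoid integrins was therefore seen for 4 tested genes and not for these 5.

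ITGA4 (ENSG00000115232.13, chr2:181457202-181538940, plus strand, GRCh38) had 4.97 and 4.16 CPM in the pure HEK libraries and 85.9 and 99.6 CPM in the pure Jurkat libraries. The groups did not overlap, and ITGA4 was detected in both lines, with 47 and 63 counts in HEK. The log2 difference between pure HEK and pure Jurkat was -4.57 (SE 0.25, edgeR adjusted p = 0.000643). ITGA4 shares 2813 exon bases with CERKL, which lies on the opposite strand, and although the libraries were made to keep strand, the counting is not stated to use it. CERKL was at 3.81 and 4.02 CPM in HEK and at 67.1 and 74.0 CPM in Jurkat, and the part of shared reads in the ITGA4 difference was not tested.

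ITGAL (ENSG00000005844.17, chr16:30472658-30523567, plus strand) had 0.423 and 0.792 CPM in HEK, or 4 and 12 counts, against 52.6 and 51.0 CPM in Jurkat. The lines were far apart and the Jurkat libraries close together. The log2 difference was -6.54 (SE 0.35, edgeR adjusted p = 0.000643). The transcript length that RSEM weighted for ITGAL was 987 and 652 bases in HEK and 5013 and 4387 bases in Jurkat, so the few HEK reads were assigned to shorter transcripts. ITGB2 (ENSG00000160255.17, chr21:44885953-44931989, minus strand) had 2 and 1 counts in HEK, which is within the floor of 3 counts, and 221 and 455 counts in Jurkat. In CPM its Jurkat libraries were at 49.5 and 73.3. The edgeR adjusted p was 0.000643, and the fold is given as a bound because the HEK level could not be told from 0. ITGB2-AS1, which shares 303 exon bases with ITGB2 on the opposite strand, had 1 count in each HEK library and 29 and 24 counts in Jurkat.

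ITGB7 (ENSG00000139626.15, chr12:53191323-53207282, minus strand) was near the limit of detection in every library. It had 1 and 0 counts in HEK and 7.27 and 5.83 expected counts in Jurkat, or 1.63 and 0.940 CPM, which made it at least 4.98-fold higher in Jurkat. It did not pass the filter on low counts and was therefore not among the 9 genes tested. With no filter its edgeR adjusted p was 0.00449. A total of 1881 of its exon bases are shared with ZNF740 on the opposite strand, which was at 8.57 to 17.3 CPM in the pure libraries.

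ITGB5 (ENSG00000082781.11, chr3:124761948-124901418, minus strand) had 9.31 and 12.9 CPM in HEK against 0 and 0.967 CPM in Jurkat, where its counts were 0 and 6. The log2 difference was 4.08 (SE 0.75, edgeR adjusted p = 0.0111). Without pure HEK replicate 2 the log2 difference was 3.86 and the adjusted p by edgeR was 0.0519, so the call rests on that library. Left out in turn, the Jurkat libraries moved the log2 difference to 3.27 (without replicate 1) and to 9.73 (without replicate 2, against a library at 0, so that the fitted value is no bound), and the fold of 22.9 therefore rests on 6 Jurkat counts.

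By this test 1 of the 9 tested integrins was higher in HEK, where 24.2% of all 15794 tested genes were, and 3 were higher in Jurkat, where 19.0% of all genes were. The median log2 difference of the 9 was -0.62, beside 0.067 over all tested genes.

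The promoter sequences nearest to the annotated starts of ITGA4 and ITGB5 are shown because these genes were called in opposite directions. RefSeq windows (GRCh38.p14) were matched for 7 of the 10 genes, and none was used here for ITGAL, ITGB2 and ITGA3. The stretches printed end at the base before the first annotated start, at chr2:181457136-181457201 on the plus strand for ITGA4 and at chr3:124901419-124901618 on the minus strand for ITGB5, and are written 5′ to 3′. Capitals mark matches to GGGCGG, a core often bound by SP1-type factors, on either strand.
ITGA4: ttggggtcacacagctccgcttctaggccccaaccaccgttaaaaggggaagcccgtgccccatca
ITGB5: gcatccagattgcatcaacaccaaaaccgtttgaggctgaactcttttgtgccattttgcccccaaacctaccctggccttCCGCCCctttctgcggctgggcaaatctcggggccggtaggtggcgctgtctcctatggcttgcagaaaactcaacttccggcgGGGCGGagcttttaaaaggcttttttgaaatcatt
The ITGB5 stretch of 200 bases held 2 matches to GGGCGG, a motif present in 40.1% of all 35116 windows of that length. The ITGA4 stretch of 66 bases held none, and 11.7% of all windows held one in the matching 66 bases. That stretch is the far upstream end of the RefSeq window, so bases nearer to the RefSeq start were not searched. AGGAAG (an ETS-type core), TGTGGT (a RUNX-type core) and TATAAA were searched on both strands in the same stretches and no match was found. They were present in 23.9%, 8.72% and 8.59% of all windows of 200 bases. In the 66 bases matching the ITGA4 stretch they were present in 7.93%, 3.15% and 3.12%, so a lack of matches there says little.

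ITGB1 (ENSG00000150093.18, chr10:32887273-33005792, minus strand) varied more between libraries of a line than between lines. It was at 66.0 and 193 CPM in pure HEK and at 274 and 89.6 CPM in pure Jurkat, so the lines overlapped. The log2 difference of -0.71 had an SE of 0.70 (edgeR adjusted p = 0.453). Its mean was 129 ± 89.5 CPM in HEK and 182 ± 131 CPM in Jurkat (SD, n = 2), and the difference was smaller than this spread. Both the highest HEK and the highest Jurkat value came from 1 library each, pure HEK replicate 2 and pure Jurkat replicate 1.

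ITGAV, the vitronectin receptor alpha chain, had 12.3 and 14.5 CPM in HEK and 9.69 and 4.51 CPM in Jurkat. The lines did not overlap, but the log2 difference of 0.73 (SE 0.39) missed the threshold, with an edgeR adjusted p of 0.188. It passed without pure Jurkat replicate 1, with a log2 difference of 1.33 and an edgeR adjusted p of 0.0312, and with no filter on low counts, with an edgeR adjusted p of 0.0357. ITGA6, a laminin receptor alpha chain, was at 18.9 and 23.0 CPM in HEK and at 21 and 15 CPM in Jurkat, with a log2 difference of 0.0016 (SE 0.26). ITGA3, the other laminin receptor chain, ran from 2.77 to 4.34 CPM in HEK and from 2.62 to 2.90 CPM in Jurkat. ITGA5, the fibronectin receptor chain, was at 5.18 and 4.88 CPM in HEK and at 8.06 and 5.32 CPM in Jurkat. Its log2 difference was -0.62 (SE 0.31), with an edgeR adjusted p of 0.162. The SE of these 4 chains was 0.26 to 0.39, so smaller differences may have been missed.

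**Figure D1:**
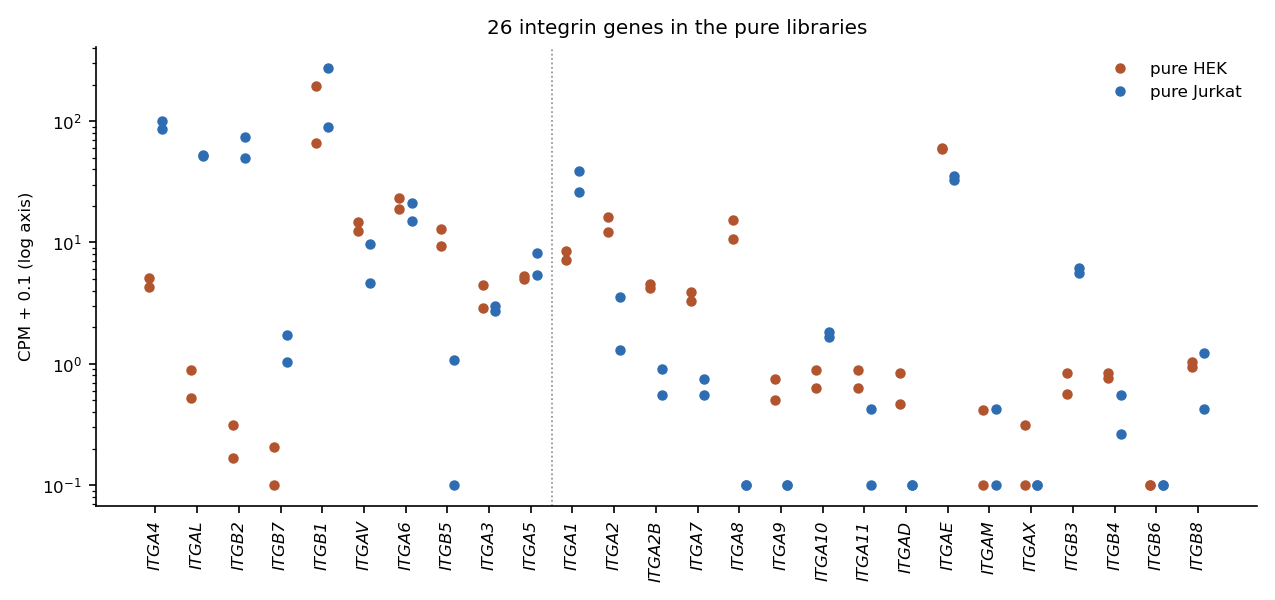
CPM plus 0.1 of 26 integrin genes in the pure libraries on a log axis, with 1 point for each library; the 10 genes described in depth stand left of the dotted line. ITGA4, ITGAL, ITGB2 and ITGB7 have both Jurkat points above both HEK points, ITGB5 has both HEK points (9.31 and 12.9 CPM) above Jurkat, and the ITGB1 points of the lines interleave.

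Levels of different genes were compared per transcript length, in TPM, which RSEM scales to the same total in every library. In pure HEK the ITGB1 level was 67.0 and 270 TPM, and the 5 alpha chains ITGA3, ITGA4, ITGA5, ITGA6 and ITGAV together reached 17.1 and 23.9 TPM. In pure Jurkat ITGB1 was at 399 and 112 TPM and the same 5 alpha chains at 62.0 and 62.5 TPM. The ratio of ITGB1 to this sum was 1.80 to 11.3 in TPM. RSEM weighted ITGB1 by a transcript length of only 701 to 1146 bases over the 14 libraries. Without the division by length the ratio was 0.704 in pure Jurkat replicate 2, so the order there rests on the lengths.

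Among the 5 alpha chains ITGA3, ITGA4, ITGA5, ITGA6 and ITGAV, the chain with the highest level differed between the lines. ITGA6 made up 61.6% and 71.1% of the summed TPM of the 5 alpha chains in pure HEK. ITGA4 made up 63.0% and 80.4% of that sum in pure Jurkat, and 10.3% and 10.2% in pure HEK. ITGB2 was at 24.6 and 33.2 TPM in the Jurkat libraries and its partner ITGAL at 10.2 and 11.1 TPM. Without the division by length the ratio of ITGB2 to ITGAL was 0.940 and 1.44, so the order turned in pure Jurkat replicate 1. ITGB5 was at 4.16 and 5.49 TPM in pure HEK and its partner ITGAV at 2.13 and 2.04 TPM, but in CPM ITGAV was the higher in both libraries, so this order rests on the lengths RSEM used. Reads were primed with oligo-dT, and whether they scale with transcript length was not tested.

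The shares above are of each library's gene counts. Since equal cell numbers and equal spike-in volumes were used, the counts were also set against the ERCC counts. Pure HEK held 147 and 97.3 gene counts for each ERCC count and pure Jurkat 12.1 and 12.3. On this scale the median of all genes lay 3.61 log2 units higher in HEK, and 92.5% of genes were called higher in HEK and 3.22% higher in Jurkat. Against that shift, 6 of the 9 tested integrins were higher in HEK and 2, ITGAL and ITGB2, were higher in Jurkat. An error in the spike-in amount is shared by all genes of a library, so the p-values on this scale are too small. The HEK share of RNA, estimated below without spike-ins, was 81.6% and 85.5% with 50% HEK cells. That is a smaller excess of HEK RNA at equal cell numbers than the spike-in scale gives, and the cause was not tested. A smaller shift would move every log2 difference on this scale toward Jurkat, that of ITGA4 included.

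ITGAL stood at 0.0624 and 0.0771 counts per 1000 ERCC counts in HEK and at 0.635 and 0.629 in Jurkat, a 9.06-fold difference without overlap. ITGB2 was at 0.0312 and 0.00642 in HEK and at 0.597 and 0.904 in Jurkat, at least 22.7-fold higher in Jurkat. ITGA4, which was called by share of counts, was not called here. It had 0.733 and 0.405 counts per 1000 ERCC counts in HEK and 1.04 and 1.23 in Jurkat, a 1.99-fold difference. The log2 difference on this scale was -1.02 (SE 0.55, edgeR adjusted p = 0.0686). It passed the threshold without the most abundant spike-in, with an edgeR adjusted p of 0.0236, and without pure HEK replicate 1, with an edgeR adjusted p of 0.0148.

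The 5 chains not called by share of counts were all higher in HEK per spike-in count. The log2 difference was 2.69 for ITGB1, 4.23 for ITGAV, 3.52 for ITGA6, 3.68 for ITGA3 and 2.91 for ITGA5, with SE from 0.53 to 0.68. Relative to the median shift of 3.61 over all genes, these 5 lay between 0.92 below and 0.63 above it. ITGB5 was at 1.37 and 1.25 counts per 1000 ERCC counts in HEK and at 0 and 0.0119 in Jurkat, and its log2 difference of 7.53 (SE 0.79) was the largest of the 9. The median of the 9 genes was 2.91.

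**Figure D2:**
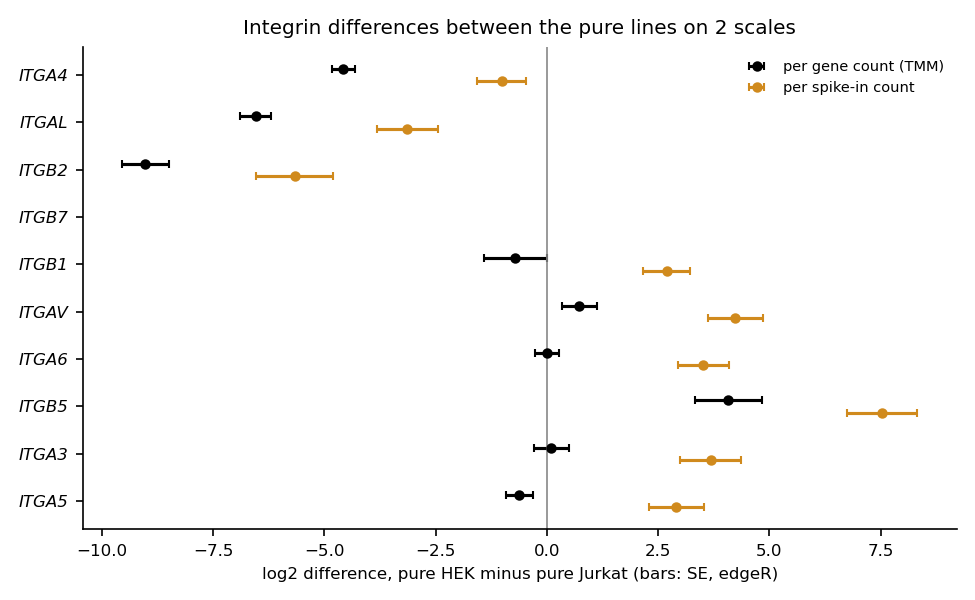
Log2 difference between pure HEK and pure Jurkat by edgeR with its SE, per gene count (black) and per spike-in count (orange); ITGB7 was not tested. The orange points lie to the right of the black ones in every gene, and ITGAL and ITGB2 (-3.14 and -5.66 per spike-in count) stay left of 0 together with ITGA4, whose value of -1.02 was not called. The fitted value of ITGB2 depends on how a level near 0 is treated and is no bound.

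**Figure D3:**
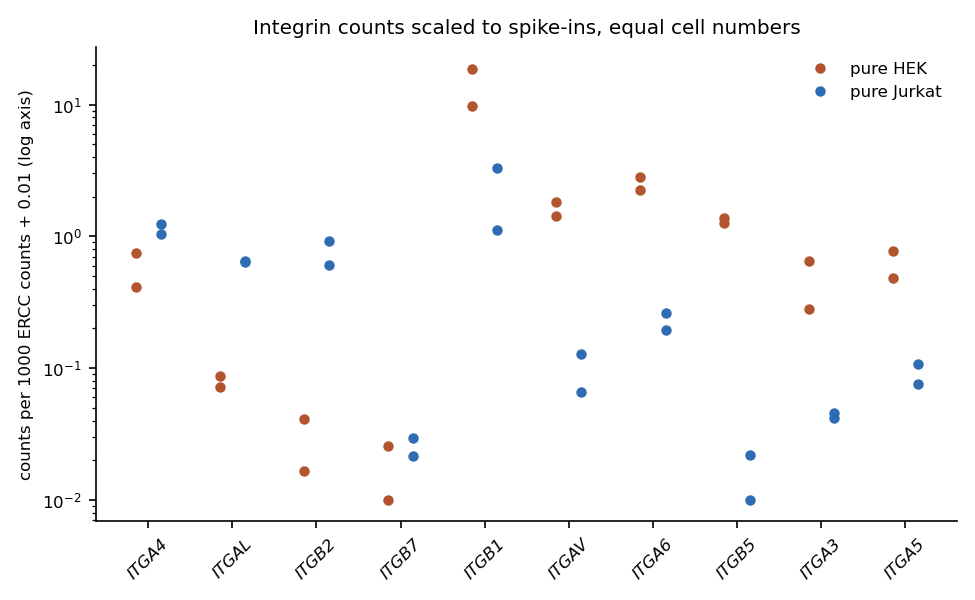
Counts per 1000 ERCC counts plus 0.01 in the 2 libraries of each pure line, on a log axis. HEK points lie above Jurkat points for ITGB1, ITGAV, ITGA6, ITGB5, ITGA3 and ITGA5, and Jurkat points above HEK points for ITGA4, ITGAL and ITGB2.

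Along the mixtures the levels of ITGAL and ITGB2 fell step by step as the HEK percentage rose. ITGAL was at 22 and 24.1 CPM with 20% HEK cells, 11.3 and 13.0 CPM with 40%, 8.45 and 9.43 CPM with 50%, 7.46 and 6.52 CPM with 60%, and 3.57 and 3.19 CPM with 80%. All 6 pairs of neighbouring conditions, the pure lines included, were free of overlap. ITGB2 was at 20.8 and 22.8 CPM with 20% HEK cells, 14.4 and 13.5 CPM with 40%, 9.40 and 9.14 CPM with 50%, 6.18 in both libraries with 60%, and 3.49 and 3.54 CPM with 80%. Its 6 neighbouring pairs were likewise free of overlap. The share of all genes with 6 such pairs was not counted, so this describes ITGAL and ITGB2 and does not set them apart. The design set the number of cells of each line. From the counts of a mixed library alone, fewer cells of a line and less RNA per cell cannot be told apart.

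ITGA4 did not fall as evenly. It was at 58.7 and 64.8 CPM with 20% HEK cells, 40.5 and 12.4 CPM with 40%, 22.8 and 10.2 CPM with 50%, 8.85 and 10.2 CPM with 60%, and 8.77 and 10.4 CPM with 80%. The 40% libraries differed 3.26-fold, and the conditions from 40% to 80% overlapped with their neighbours. CERKL, the gene on the opposite strand, was at 15.7 and 21.7 CPM in the same 40% libraries, so the library with the higher ITGA4 level had the lower CERKL level.

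The trend was tested over the 10 mixed libraries as the log2 change from 20% to 80% HEK. 3 of the 9 tested integrins fell with the HEK percentage, where 4.82% of 18516 genes did, and none rose, where 0.643% of genes did. At an unadjusted p under 0.05 none rose by edgeR or by DESeq2 either. The HEK share of RNA, estimated below, was 59.4% and 60.4% with 20% HEK cells, so genes high in HEK had little room to rise. The 3 that fell had been called higher in Jurkat between the pure lines, so a fall follows from the mixing and is no separate support. The change was -2.77 for ITGAL (SE 0.18, edgeR adjusted p = 3.58e-06) and -2.77 for ITGB2 (SE 0.22, edgeR adjusted p = 1.18e-05). For ITGA4 it was -2.88 (SE 0.54, edgeR adjusted p = 0.006). The file name groups are unevenly spread over the percentages. With the group of file names as a second term the ITGA4 change was -2.26 (edgeR adjusted p = 0.243), and within the 6 mixed libraries of one group it was -3.56 (edgeR adjusted p = 0.205). ITGAL and ITGB2 stayed called in both. With library sizes from the ERCC totals 75% of all genes were called, and none of the 3 falling integrins was, with changes of -1.06 for ITGAL, -1.02 for ITGB2 and -1.01 for ITGA4 (edgeR adjusted p from 0.0887 to 0.132). The other 6 tested integrins rose on that scale, by 1.32 to 1.95 log2 units. Replicates differed in this scaling, at 46.6 and 123 gene counts per ERCC count with 80% HEK and 17.4 and 28.0 with 20%.

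For ITGB5 the level expected from additive mixing, defined below, rose only from 6.79 and 6.89 CPM with 20% HEK cells to 10.4 and 10.6 CPM with 80%. ITGB5 showed no called trend over the mixtures. It was at 7.11 and 8.32 CPM with 20% HEK cells, 9.58 and 7.55 CPM with 40%, 7.53 and 11.3 CPM with 50%, 8.93 and 11.0 CPM with 60%, and 7.91 and 8.75 CPM with 80%, and its change of 0.12 (SE 0.23) did not pass the test. The other chains ran from 65.0 to 144 CPM (ITGB1), 11.0 to 20.7 CPM (ITGAV), 11.2 to 31.1 CPM (ITGA6), 2.6 to 4.75 CPM (ITGA3) and 3.40 to 9.94 CPM (ITGA5) over the mixed libraries, and none passed the trend test. ITGB7 had at most 7.61 expected counts in a mixed library. In mixtures it was at 0 to 0.0997 CPM with 50% HEK cells or more, and at 0.30 to 0.404 CPM with 20% or 40%.

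**Figure D4:**
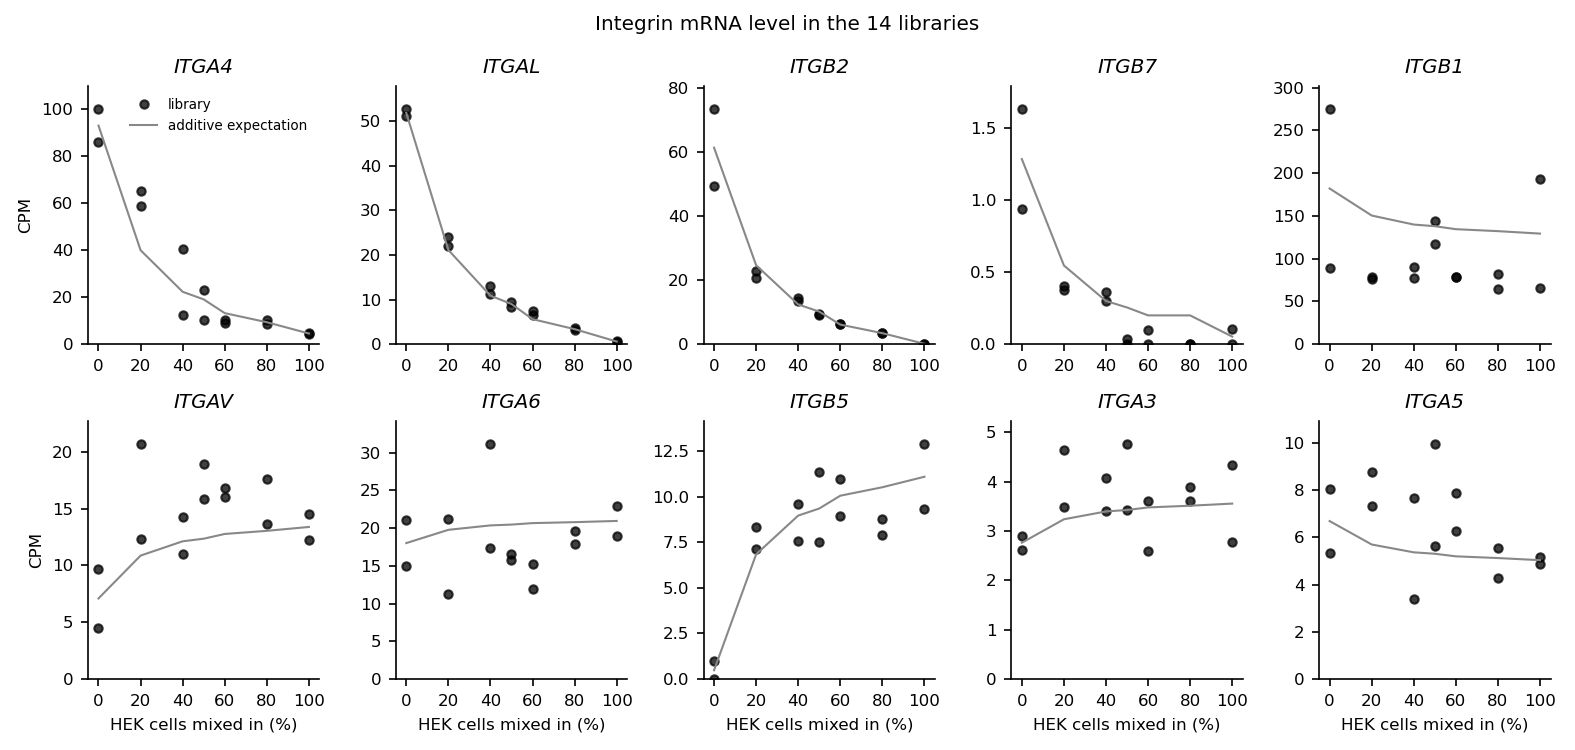
CPM of the 10 integrins against the percentage of HEK cells, with 1 point for each of 14 libraries and a grey line for the level expected if the pure lines mix additively by their shares of RNA (never set under 0.2 CPM in mixtures). ITGAL and ITGB2 follow the line closely, ITGA4 spreads around it between 20% and 60% HEK, ITGB5 rises between 0% and 20% HEK and then stays between 7.11 and 12.9 CPM, and ITGB1 lies below the line in 9 of the 10 mixed libraries, a departure that was 0.043 on the log2 scale without pure HEK replicate 2.

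Adding the smaller share of the other line to a pure line was compared directly. In both such comparisons genes that differ between the pure lines move by design, so the counts called are no separate support. With 80% HEK, against pure HEK, 2 of the 10 integrins were higher, where 0.941% of 19129 genes were, and none was lower, where 0.0105% of genes were. At an unadjusted p under 0.05 edgeR and DESeq2 also found 0 lower. The HEK share of RNA, estimated below, was 93.9% and 95.2% with 80% HEK, so dilution left little room for a fall. ITGAL rose by 2.46 log2 units (SE 0.29, edgeR adjusted p = 0.000873). ITGB2 rose from 2 and 1 counts to 53 and 52 counts (edgeR adjusted p = 0.000214). ITGA4, which HEK cells also express, was 1.13 log2 units higher at 80% HEK, with an SE of 0.56 and an edgeR adjusted p of 0.885. With library sizes from the ERCC totals ITGB2 remained called and ITGAL did not, at 1.95 (edgeR adjusted p = 0.606). The 80% libraries held 46.6 and 123 gene counts per ERCC count, so the replicates differed in this scaling.

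With 20% HEK, against pure Jurkat, 2 of the 10 integrins were higher, where 18.5% of genes were, and 2 were lower, where 7.65% of genes were. ITGB5 rose by 3.67 log2 units (SE 0.60, edgeR adjusted p = 0.000876), from 0 and 6 counts to 134 and 117 counts. It was 2.83 without pure Jurkat replicate 1 and 9.79, against a library at 0, without pure Jurkat replicate 2. ITGAV rose by 1.13 (SE 0.34, edgeR adjusted p = 0.0301), but not without 20% HEK replicate 1 (edgeR adjusted p = 0.231) or without pure Jurkat replicate 2 (edgeR adjusted p = 0.224). ITGAL fell by 1.29 (SE 0.22, edgeR adjusted p = 0.00114) and ITGB2 fell by 1.62 (SE 0.26, edgeR adjusted p = 0.000828). ITGB1 was 1.35 log2 units lower at 20% HEK, with an edgeR adjusted p of 0.0721. DESeq2 gave it an adjusted p of 0.0229, and the difference was -0.37 without pure Jurkat replicate 1 and -1.94 without pure Jurkat replicate 2. With library sizes from the ERCC totals ITGB5 and ITGAV remained called, at 4.70 and 2.04, and ITGAL and ITGB2 did not, at -0.26 and -0.59. The 20% libraries held 17.4 and 28.0 gene counts per ERCC count.

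Whether a mixture held what its parts predict was tested with the HEK share of RNA. That share was estimated from 737 genes high in HEK and 500 genes high in Jurkat and was well above the share of cells. It was 59.4% and 60.4% with 20% HEK cells, 81.6% and 85.5% with 50%, and 93.9% and 95.2% with 80%. Each value is the mean of the estimates from HEK-high and from Jurkat-high genes, and the HEK-high estimate was the lower in every mixed library. With 50% HEK cells the HEK-high genes gave 75.1% and 82.7% and the Jurkat-high genes 88.2% and 88.4%. The expected level of a gene was its mean in each pure line, weighted by the mean of the 2 estimates. 1 of the 9 tested integrins lay above the additive level, where 7.79% of 18516 genes did, and 1 below, where 7.64% did.

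ITGAL and ITGB2 stayed near the expected level. The ratio of observed to expected level over the 10 mixed libraries had a median of 1.06 for ITGAL (0.845 to 1.45) and of 0.976 for ITGB2 (0.826 to 1.17). The median for ITGA4 was 0.991, but the ratios ran from 0.588 to 1.72. Both 20% libraries were above 1, at 1.45 and 1.64, and both 60% libraries below it, at 0.714 and 0.728. The median for ITGB5 was 0.964 (0.758 to 1.21). Its 20% libraries were above 1, at 1.05 and 1.21, and its 80% libraries below it, at 0.758 and 0.827.

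ITGB1 was the member below the additive level, with a median ratio of 0.585 and a log2 departure of -0.64 (SE 0.12, edgeR adjusted p = 0.00337). This call rested on the pure libraries: without pure HEK replicate 2, which held 193 CPM, the departure was 0.043 (edgeR adjusted p = 0.815). ITGA3 was above the additive level in 9 of 10 mixed libraries and ITGA5 in 8, with median ratios of 1.05 and 1.25, and neither was called. ITGA6 was above it in 2, with a median ratio of 0.832, and was not called. ITGAV was likewise above the additive level in 9 of 10 mixed libraries, with a median ratio of 1.28 and a departure of 0.37 (SE 0.092, edgeR adjusted p = 0.0173). Without pure HEK replicate 1 its departure was 0.26 (edgeR adjusted p = 0.0515). Within the file name groups the departures of ITGB1 were -0.64 and -0.65 and those of ITGAV 0.36 and 0.39, and 0 of the 9 passed the edgeR test in either group, where 2 had an unadjusted p under 0.05.

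For each member the gene with the most similar profile over the 14 libraries was found by Pearson's r of log2(CPM + 1) among 9210 genes with a mean of at least 10 CPM. The points share library depth and the mixing itself, so r is a description. The nearest gene was NCKAP1L for ITGAL (r = 0.998) and CASC15 for ITGB2 (r = 0.997). ITGAL and ITGB2 had an r of 0.99 with each other. For ITGA4 it was MBP (r = 0.971), at 3.86 CPM in HEK and 92.0 CPM in Jurkat, close to the means of ITGA4. For ITGB5 it was CKAP4 (r = 0.986), and for ITGAV it was CPVL (r = 0.950). The values were lower for ITGA5 with CNOT8 (0.938), ITGB1 with VCPIP1 (0.853), ITGA6 with SSH1 (0.797) and ITGA3 with BBS1 (0.795). ITGB7, at very few counts, was nearest to PAXIP1-AS2 (0.975).

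Of the 16 other integrin genes, 8 were tested between the pure lines, of which 4 were higher in HEK and 2 in Jurkat, where 24.2% and 19.0% of all genes were. Per spike-in count 7 were higher in HEK and 0 in Jurkat by edgeR, and all 8 tested had a log2 difference above 0, so that none was higher in Jurkat at an unadjusted p either. On that scale ITGA1 was at a log2 difference of 1.26 (edgeR adjusted p = 0.0252) and ITGB3 at 0.0051. Among alpha chains ITGA8, which pairs with ITGB1, was at 10.6 and 15.1 CPM in HEK and at 0 in both Jurkat libraries, at least 22.2-fold higher in HEK. By share of counts the collagen receptor chains differed in opposite directions. ITGA2 was higher in HEK, with a mean of 14.0 ± 2.74 against 2.32 ± 1.60 CPM, and ITGA1 was higher in Jurkat, with 32.5 ± 9.15 against 7.70 ± 0.902 CPM (SD, n = 2). ITGA2B, the platelet chain, and ITGA7, a laminin receptor chain, were higher in HEK at 4.29 against 0.631 and 3.49 against 0.546 CPM. ITGB3, a partner of ITGAV and of ITGA2B, was higher in Jurkat by share of counts, at 5.76 against 0.601 CPM.

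ITGAE, the alpha chain that pairs with ITGB7, was at 58.6 and 60.1 CPM in HEK and at 32.5 and 35.1 CPM in Jurkat. It did not pass the test (edgeR adjusted p = 0.0658), and ITGA10, a collagen receptor chain at 1.65 CPM in Jurkat and 0.660 CPM in HEK, did not either (edgeR adjusted p = 0.0531). The myeloid partners of ITGB2, ITGAM and ITGAX, had at most 3 counts in any pure library, and ITGB6 had none there. The other untested genes were below 1 CPM on average in both pure lines.

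The regulators of leukocyte integrins were mostly higher in Jurkat. All 11 were tested, 10 were higher in Jurkat and 1 in HEK, where 19.0% and 24.2% of all genes were, with a median log2 difference of -4.40 beside 0.067 over all genes. Per spike-in count 5 of the 11 were higher in Jurkat and 1 in HEK, with a median of -0.90 beside 3.61. FYB1, an adaptor of T cell integrin activation, was at 1385 and 1172 CPM in Jurkat and at 0.212 and 0.264 CPM in HEK. APBB1IP, which links RAP1 to talin, was at 212 and 210 CPM in Jurkat and at no more than 3 counts in HEK, at least 819-fold higher in Jurkat. The exception was SKAP2, a relative of the T cell adaptor SKAP1, at 180 and 132 CPM in HEK and 0.671 and 0.580 CPM in Jurkat. Along the mixtures 9 of the 11 fell with the HEK percentage, where 4.82% of all genes did. Genes higher in Jurkat are diluted by the mixing itself, so this count is no separate support.

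Genes of focal adhesions and of general integrin activation were less uniform. Of 27 tested, 12 were higher in HEK and 2 in Jurkat, where 24.2% and 19.0% of all genes were, with a median log2 difference of 0.59. Per spike-in count 26 were higher in HEK and 0 in Jurkat by edgeR, and again no tested gene had a log2 difference under 0. PARVA, an adaptor between integrin-linked kinase and actin, was at 13.4 and 9.04 CPM in HEK and at 0 in both Jurkat libraries, at least 19.5-fold higher in HEK. PTK2, the focal adhesion kinase, was at 28.9 and 24.0 CPM in HEK and at 4.70 and 4.67 CPM in Jurkat. LIMS1, a binding partner of integrin-linked kinase, was higher in Jurkat by share of counts, at 248 and 279 CPM against 128 and 167 CPM, and higher in HEK per spike-in count (log2 difference 2.45, edgeR adjusted p = 3.3e-06). Talin, encoded by TLN1, was at a mean of 158 CPM in HEK and 193 CPM in Jurkat and did not pass the test (edgeR adjusted p = 0.345).

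Ligands of integrins were tested for 10 of 19 genes, and 6 were higher in HEK and 2 in Jurkat, where 24.2% and 19.0% of all genes were. The laminin chain LAMC1 was at 73.5 and 98.8 CPM in HEK and at 0 and 0.645 CPM in Jurkat. LAMA3, another laminin chain, was at 15.1 and 6.53 CPM in HEK and at no more than 1 count in Jurkat, at least 18.8-fold higher in HEK. Of the counter-receptors of the ITGAL and ITGB2 receptor, those higher in Jurkat were ICAM2 at 61.7 and 69.3 CPM against 0.0772 and 0.509 CPM and ICAM3 at 34.1 and 52.7 CPM against 1.08 and 1.78 CPM. F11R, a junction protein that also binds this receptor, was 2.26-fold higher in HEK, at a mean of 13.2 ± 0.790 against 5.85 ± 1.16 CPM (SD, n = 2 each, edgeR adjusted p = 0.0347). VCAM1, a counter-receptor of ITGA4, had no count in any pure library, and ICAM1 had a mean of 0.238 CPM in HEK and 0.134 CPM in Jurkat. Of the other ITGA4 ligands named above, fibronectin (FN1) had a mean of 16.5 CPM in HEK and 9.36 CPM in Jurkat. MADCAM1 had a mean of 5.39 CPM in HEK and 4.30 CPM in Jurkat.

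**Figure D5:**
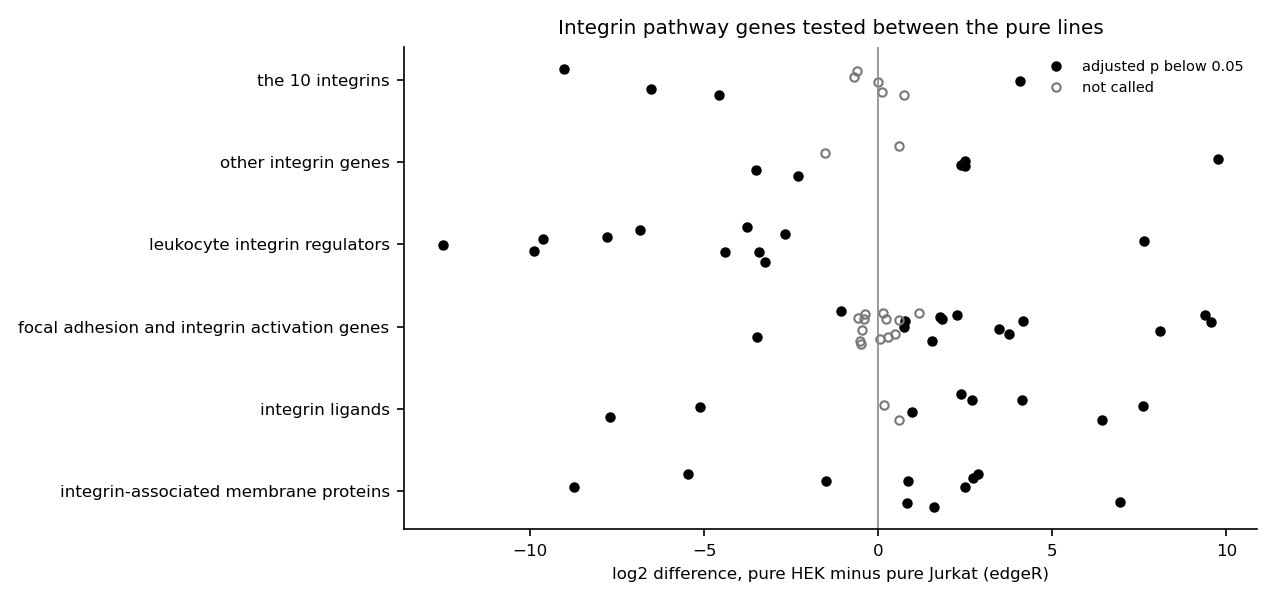
Log2 difference between pure HEK and pure Jurkat by edgeR for each tested gene of the 10 integrins and of 5 other lists, with filled points for an adjusted p below 0.05 (vertical scatter within a list has no meaning). 10 of 11 leukocyte integrin regulators lie left of 0, and 12 called genes of the focal adhesion list lie right of it.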

How the data were processed

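RNA-seq of 14 libraries of HEK-293T and Jurkat mixtures was examined. The authors captured mRNA with oligo-dT, aligned single-end reads to GRCh38 and the ERCC sequences with STAR 2.6.1b and counted with RSEM 1.3.1, per the labels and methods. They deposited expected counts, not normalized, TPM scaled by RSEM over genes and spike-ins, and transcript lengths in bases. The annotation release is not given in the sources used here. The series-wide table was not used.

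Symbols and coordinates came from GENCODE release 44 (GRCh38), matched by identifier without version. CPM were computed from expected counts over genes without ERCC. For tests, expected counts were rounded to whole numbers, filtered with filterByExpr and fitted in edgeR 4.0.16 (TMM, glmQLFit, glmQLFTest, R 4.3.3) with Benjamini-Hochberg adjustment over all genes at 0.05. SE is the log2 difference divided by the root of F. Pure-line fits used the 4 pure libraries. The per spike-in fit used ERCC totals as library sizes. The contrasts of 80% HEK with pure HEK and of 20% HEK with pure Jurkat came from a fit of all 14 libraries. The additive test set the expected level as offset, and its F was formed from edgeR deviances with the intercept at 0, since glmQLFTest takes no intercept-only design. The HEK share of RNA came from genes with a log2 difference of at least 3 and 10 CPM. A level of 3 counts or fewer in both libraries was the floor. Intervals and floors cover counting error only. DESeq2 1.42.0, Bonferroni adjustment, other scalings, filters, shares, file name groups and each library left out were alternatives. Scripts were tested on simulated data.

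The 10 genes and the other lists were chosen with earlier results of these data known. Named were all 10 genes, other integrins with a mean of at least 1 CPM in a pure line, the 2 largest called differences in each direction of each other list among genes with at least 10 CPM, and the most similar gene of each member. Other genes named were chosen after their values were seen. No comparison of the authors was used.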

Additional observations from a re-analysis of the deposited data

How the results depend on the processing

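No paired analysis was possible because the replicate numbers were given in accession order and pair no libraries. The cause of a change listed here was not tested unless the setting itself shows it. Between the pure lines ITGA4, ITGAL and ITGB2 kept direction and call in every alternative on the scale of gene counts except Bonferroni adjustment of the edgeR test. ITGA4 was not called per spike-in count (log2 difference -1.02, edgeR adjusted p = 0.0686). Bonferroni adjustment in edgeR called 0 of the 9 genes (4 at an unadjusted p under 0.05, and 4 by DESeq2 with Benjamini-Hochberg adjustment). Depth limits ITGB7, ITGB2 in HEK and ITGB5 in Jurkat, which rest on few counts, and 2 technical replicates limit the rest.

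Most reversals were of values near 0 that were not called. ITGA6 between the pure lines was -0.038 by DESeq2, -0.037 with RLE size factors and -0.0073 with all 14 libraries in the fit. With library sizes from ERCC totals the trend called 6 genes, all rising, in place of 3, all falling, and 5 turned upward, ITGB1 to 1.59, ITGAV to 1.95, ITGA6 to 1.59, ITGA3 to 1.62 and ITGA5 to 1.32. On that scale 1 gene was called for 80% HEK against pure HEK, where ITGAV was -0.20, ITGA3 -0.49 and ITGA5 -0.50. It also left 2 called for 20% HEK against pure Jurkat, where ITGA4 was 0.32 and ITGA6 0.84. With file name group as a second term the trend was 0.16 for ITGB1 and 0.14 for ITGA6, and in the 6 libraries of one group 0.67 for ITGB1.

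The count of departures from additive mixing, 2 in the report, was 4 with no filter on low counts, 4 with the share from Jurkat-high genes only (ITGB2 0.29, edgeR adjusted p = 0.0429), 0 in the 6 libraries of one file name group (ITGB5 0.020) and 0 in the 4 of the other (ITGA4 -0.26, ITGB2 0.062). At an unadjusted p under 0.05 edgeR found 2 in each. With the share from HEK-high genes only ITGA4 was -0.066, ITGAL -0.052 and ITGB5 0.0053.

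With 1 library left out at a time, where a group left with 1 library is assumed to vary like the others, the count of departures was 1 to 3, and 1 without pure HEK replicate 2. Values that changed sign ran, for pure HEK against pure Jurkat, from -1.66 to 0.30 (ITGB1), -0.21 to 0.25 (ITGA6) and -0.21 to 0.42 (ITGA3). For the trend they ran from -0.30 to 0.12 (ITGB1), -0.19 to 0.37 (ITGAV), -0.39 to 0.10 (ITGA6) and -0.0013 to 0.19 (ITGB5). For 80% HEK against pure HEK they ran from -1.32 to 0.24 (ITGB1), -0.23 to 0.066 (ITGA6), -0.13 to 0.50 (ITGA3) and -0.11 to 0.16 (ITGA5). For 20% HEK against pure Jurkat they ran from -0.78 to 0.13 (ITGA6) and -0.11 to 0.44 (ITGA5). For the departure they ran from -0.012 to 0.21 (ITGA4), -0.26 to 0.36 (ITGB2), -1.10 to 0.043 (ITGB1), -0.25 to 0.22 (ITGB5) and -0.098 to 0.44 (ITGA3). Without pure Jurkat replicate 2 the departure of ITGB2 was called, at 0.36 (edgeR adjusted p = 0.00918). Of 628 values of single genes under all alternatives, 544 kept direction and call.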

Other observations

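Membrane proteins that associate with integrins were all tested, and 7 of 10 were higher in HEK and 3 in Jurkat, where 24.2% and 19.0% of all genes were. Per spike-in count 8 were higher in HEK and 2 in Jurkat. The tetraspanin CD9 was at 15.7 and 14.7 CPM in HEK and at no more than 1 count in Jurkat, at least 26.3-fold higher in HEK. CD151, the tetraspanin that binds laminin receptors, was at 38.8 and 34.4 CPM in HEK and at 5.59 and 4.03 CPM in Jurkat. The leukocyte tetraspanin CD53 and the tetraspanin CD82 were higher in Jurkat, at 38.7 and 30.9 CPM and at 70.9 and 82.2 CPM. CD53 was at no more than 2 counts in HEK. CD37, a tetraspanin known from leukocytes, was higher in HEK, at a mean of 7.18 CPM against 0.773 CPM.

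PECAM1, an adhesion molecule listed among the endothelial markers, was at 37.7 CPM on average in Jurkat and at 0.326 CPM in HEK, while CDH5 and VWF of the same list had a mean of at most 0.033 CPM in either line.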
